A study of Rattus norvegicus with 60 samples.

Results

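The genes of the blood-spinal cord barrier examined here were Cldn5, Ocln, Tjp1, Pecam1, Cdh5, Abcb1a, Mfsd2a, Vwf and Pdgfrb. The set is named for the endothelial cells of spinal cord vessels and the pericytes around them. Which cells of the cord the RNA of each gene came from was not tested. Each gene was taken by its name, and its values came from the probe sets annotated with that symbol alone. Of the 9 genes, 7 had such a probe set, 1 each, among 14324 genes with a symbol of their own on the array. Pecam1 and Vwf were not analysed here.

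RNA came from the 5 mm lesion segment of the spinal cord of female Long Evans rats aged 8 to 9 weeks and was measured on 60 Rat Gene 1.0 ST arrays. S-EtOH rats had sham surgery and 70% ethanol, the vehicle. S-MP rats had sham surgery and methylprednisolone (MP), a synthetic glucocorticoid, at 30 mg/kg. In SCI-EtOH rats the cord was bruised by a falling weight before vehicle was given, and in SCI-MP rats before MP at 30 mg/kg. The MP was dissolved in 70% ethanol, so every rat received ethanol, and every rat was anesthetized with Zoletil 50 and Rompun. No genetic change is named for any group. Rats were killed 2, 4, 6, 8, 12, 24 or 48 h after medication, with 2 labelled duplicates per group and time, and rats of the vehicle groups also at 0 h. The study asked which genes injury changed and which of these changes MP altered or left.

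Each value is a log2 value relative to a centre of its own probe set, so 0 is that centre and not absence, and levels of different genes cannot be compared. A difference of 1 on this scale is 2-fold. Unless stated otherwise, a difference is the mean of the differences at the 7 times from 2 to 48 h with its standard error (SE), with 14 arrays per group, from 1 limma fit. A gene was called where its p, adjusted by Benjamini-Hochberg over all 14324 genes, was under 0.05. In whole cord, fewer cells of a type and less RNA per cell cannot be told apart.

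Endothelial cells of the central nervous system are joined by tight junctions, which close the gap between cells, and by adherens junctions, which hold them together. They form few transport vesicles, and the pumps and carriers in their membranes decide what passes. Pericytes lie in the same basement membrane and depend on platelet-derived growth factor from the endothelium. Contusion is known to tear vessels and to open this barrier, and glucocorticoids are known to tighten endothelial junctions in culture.

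Promoters are shown for Cldn5, Abcb1a and Ocln because the difference between injury and sham fell from early to late times for all 3, with vehicle and with MP, as described further on. The RefSeq promoter table (GRCr8) held 4 of the 7 genes, and its windows run from 250 bases before to 50 bases after an annotated start. All 3 windows shown lie on the minus strand and are written 5′ to 3′ in lower case, with a GC box, GGGCGG or its complement CCGCCC, in capitals.
Cldn5, chr11:95718549-95718848: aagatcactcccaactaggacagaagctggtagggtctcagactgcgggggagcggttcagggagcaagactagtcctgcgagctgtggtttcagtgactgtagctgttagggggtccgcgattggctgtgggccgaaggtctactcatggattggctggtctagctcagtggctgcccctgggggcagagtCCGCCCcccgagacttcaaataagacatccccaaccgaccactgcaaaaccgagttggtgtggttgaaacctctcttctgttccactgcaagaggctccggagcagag
Abcb1a, chr4:26397599-26397898: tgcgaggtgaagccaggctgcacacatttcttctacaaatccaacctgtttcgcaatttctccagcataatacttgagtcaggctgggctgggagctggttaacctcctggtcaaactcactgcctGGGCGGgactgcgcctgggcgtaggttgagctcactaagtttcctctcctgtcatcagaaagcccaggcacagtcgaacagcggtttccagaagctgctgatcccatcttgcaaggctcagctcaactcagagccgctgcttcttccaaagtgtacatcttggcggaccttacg
Ocln, chr2:33441149-33441448: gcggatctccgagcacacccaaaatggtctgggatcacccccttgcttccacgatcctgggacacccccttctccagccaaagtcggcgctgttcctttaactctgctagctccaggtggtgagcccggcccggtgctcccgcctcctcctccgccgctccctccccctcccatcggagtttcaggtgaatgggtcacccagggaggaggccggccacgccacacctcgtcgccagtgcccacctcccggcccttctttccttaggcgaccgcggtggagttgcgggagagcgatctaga
The start used for Cldn5 is the annotated start of the gene, and those for Ocln and Abcb1a lie inside the annotated span. The first base of the GC box stood at -58 from the start in Cldn5 and at -124 in Abcb1a, and 33.1% of all 33469 windows of this length held one. The other 4 of the 5 motifs searched on both strands were CCGGAAG of ETS factors (in 8.75% of windows), GTAAACA of forkhead factors (3.78%), AACAAT of SOX factors (11.7%) and the palindromic site of the glucocorticoid receptor (0.439%). None of these 4 was in the 3 windows shown, and in the window of Tjp1, not printed, AACAAT on the other strand stood at -85. The GC content was 57.7% for Cldn5, 53.7% for Abcb1a and 65.3% for Ocln.

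After injury with vehicle, 4 of the 7 genes were higher and 1 was lower than after sham surgery with vehicle. Cdh5 was higher by 0.74 on the log2 scale, and Abcb1a, Cldn5 and Tjp1 were higher by 0.41, 0.39 and 0.20. These are differences from sham at the same times and not changes from 0 h. Mfsd2a differed by -0.31, and Ocln and Pdgfrb, not called, by 0.00 ± 0.067 and 0.06 ± 0.066. Of all genes, 35.1% were called higher and 27.5% lower in this comparison, so a call alone does not set a gene apart here. The median difference of the 7 genes was 0.20 against 0.04 over all genes. For none of the 7 were the 14 SCI-EtOH arrays clear of the 14 S-EtOH arrays, as they were for 1.08% of all genes upward and 3.55% downward.

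Claudin-5, the main sealing protein of endothelial tight junctions, is the product of Cldn5. From the lowest value over the median to the highest, it ran from -0.69 over -0.24 to 0.48 in S-EtOH and from -0.59 over 0.17 to 1.09 in SCI-EtOH. The ranges overlapped over most of their length. The difference was 0.39 ± 0.082 (1.31-fold, limma adjusted p = 1.3e-04). It stood at 0.76 ± 0.13 (adjusted p = 1.6e-05) over 2, 4 and 6 h and at -0.38 ± 0.15 (adjusted p = 0.040) over 24 and 48 h. At 2 h the SCI-EtOH arrays read 1.09 and 0.43 and the S-EtOH arrays 0.12 and -0.04, and at 48 h SCI-EtOH read -0.28 and -0.59 and S-EtOH -0.21 and -0.18. Both injured arrays were above sham at the first of these times and below it at the last. At 0 h SCI-EtOH read 0.35 and 0.40 against -0.08 and -0.05 in S-EtOH, a difference of 0.44 ± 0.22 that was not called (adjusted p = 0.43), and taking this difference off left -0.05, adjusted p = 0.93 over 7 times. The 0 h arrays came from other rats, and their spread widens the error of such a subtraction. A call lost by it does not show that the later difference was there at 0 h. None of the 7 genes was called at 0 h, where 0.0279% of all genes were higher and 0.014% lower. The late call was lost in 6 of the fits without 1 array, furthest without S-EtOH 24 h replicate 2 (-0.25, adjusted p = 0.24), and after quantile normalization (-0.22, adjusted p = 0.31).

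Ocln encodes occludin, a membrane protein of tight junctions. Its values ran from -0.71 over -0.06 to 0.35 in S-EtOH and from -0.58 over -0.02 to 0.26 in SCI-EtOH, so that over all times the ranges nearly coincided. At 24 h SCI-EtOH read -0.41 and -0.58 and S-EtOH 0.25 and 0.35. The injured pair was clear of the sham pair, with a difference of -0.80 ± 0.18 (adjusted p = 4.6e-04), where 18.1% of all genes were called lower. Over 24 and 48 h it was -0.59 ± 0.13 (adjusted p = 1.6e-04), and over 2, 4 and 6 h, not called, 0.24 ± 0.10 (adjusted p = 0.068). With the 0 h difference taken off, the late value was -0.40, adjusted p = 0.19.

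Tjp1 encodes ZO-1, the scaffold that ties claudins and occludin to actin. Its values ran from -0.43 over -0.19 to 0.10 in S-EtOH and from -0.69 over 0.11 to 0.43 in SCI-EtOH. The injured median was above the highest sham value, yet the lowest injured array was below every sham array. The difference of 0.20 ± 0.078 (adjusted p = 0.024) was not called without SCI-EtOH 6 h replicate 2 (0.13, adjusted p = 0.079), SCI-EtOH 12 h replicate 1 (0.17, adjusted p = 0.058) or SCI-EtOH 24 h replicate 1 (0.17, adjusted p = 0.065). Nor was it called without the 8 h arrays (0.11, adjusted p = 0.28) or with array medians set to 0 (0.18, adjusted p = 0.058), and it turned with the 0 h difference taken off (-0.08, adjusted p = 0.88). At 8 h SCI-EtOH read 0.43 and 0.31 and S-EtOH -0.32 and -0.43, which is 0.75 ± 0.21 (adjusted p = 0.0067), where 11.8% of all genes were called higher.

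VE-cadherin, which holds endothelial cells together at adherens junctions, is encoded by Cdh5. Its values ran from -0.63 over -0.19 to 0.07 in S-EtOH and from -0.05 over 0.57 to 1.36 in SCI-EtOH. The injured median was far above every sham array, and arrays of 2 and 6 h made the overlap. The difference was 0.74 ± 0.065 (1.67-fold, adjusted p = 7.1e-12), with 0.56 ± 0.099 (adjusted p = 4.7e-05) over 2, 4 and 6 h and 0.92 ± 0.12 (adjusted p = 7.0e-08) over 24 and 48 h. The growth between these phases, 0.37 ± 0.16, was not called (adjusted p = 0.074). At 48 h SCI-EtOH read 0.69 and 1.36 and S-EtOH 0.01 and 0.07. At 0 h the difference was 0.04 ± 0.17 (adjusted p = 0.96), and Cdh5 was the 1 gene of the 7 still called over 7 times with the 0 h difference taken off.

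P-glycoprotein, the pump that returns many drugs to the blood, is a product of Abcb1a in rodents. Its values ran from -0.71 over -0.34 to 0.14 in S-EtOH and from -0.62 over 0.21 to 0.73 in SCI-EtOH. The injured median was above every sham array, while the lower ends lay close together. The difference was 0.41 ± 0.091 (1.33-fold, adjusted p = 2.7e-04), with 0.56 ± 0.14 (adjusted p = 0.0021) over 2, 4 and 6 h and, not called, -0.36 ± 0.17 (adjusted p = 0.079) over 24 and 48 h. At 8 h SCI-EtOH read 0.51 and 0.73 and S-EtOH -0.43 and -0.63, which is 1.15 ± 0.24 (adjusted p = 5.2e-04). With the 0 h difference of 0.31 ± 0.24 taken off, the value over 7 times was 0.09, adjusted p = 0.88. Abcb1b is a closely related gene, and whether probes for one bound the other was not tested. Abcb1b differed by 0.10 ± 0.061 (adjusted p = 0.14) over 7 times and by 0.20 ± 0.16 (adjusted p = 0.40) at 8 h.

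Mfsd2a encodes a lipid carrier that also keeps vesicle transport low in barrier endothelium. Its values ran from -0.49 over 0.15 to 0.34 in S-EtOH and from -1.49 over -0.14 to 0.33 in SCI-EtOH. The injured range reached far below that of sham and shared its top. The difference was -0.31 ± 0.071 (0.807 times sham, adjusted p = 3.2e-04), and after quantile normalization -0.14, adjusted p = 0.10. At 48 h SCI-EtOH read -1.49 and -0.88 and S-EtOH -0.49 and -0.19. Over 24 and 48 h the difference was -0.63 ± 0.13 (adjusted p = 1.4e-04), and after quantile normalization it turned (0.09, adjusted p = 0.62). That normalization gives all arrays the same spread, while the SD over probe sets as deposited was 0.159 to 0.220 in S-EtOH and 0.227 to 0.515 in SCI-EtOH arrays.

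Pdgfrb encodes the receptor through which endothelial growth factor recruits and keeps pericytes. Its values ran from -0.19 over 0.05 to 0.29 in S-EtOH and from -0.29 over 0.04 to 0.69 in SCI-EtOH. The medians lay side by side, and no time or phase gave a call in this comparison. The difference was 0.06 ± 0.066, with a 95% interval from -0.07 to 0.20 (adjusted p = 0.41).

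**Figure D1:**
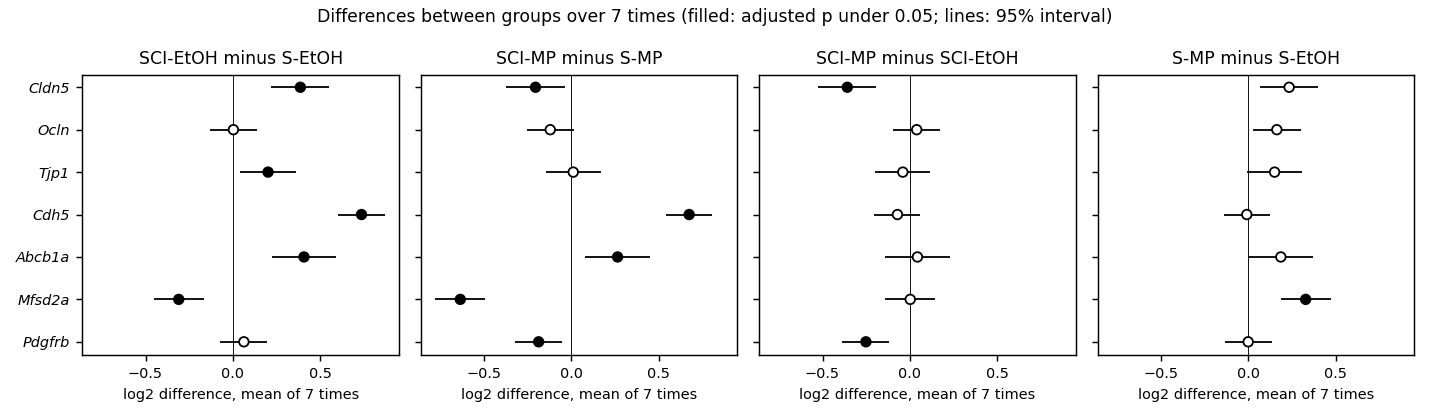
Mean log2 difference over 7 times of each of the 7 genes in the 4 comparisons between groups, with the 95% interval as a line and filled points for adjusted p under 0.05. Cdh5 lies at 0.74 and 0.67 in the comparisons of injury with sham, and Cldn5 and Pdgfrb lie below 0 for SCI-MP against SCI-EtOH.

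Early and late phases differed in direction for several of the genes. Over 2, 4 and 6 h, Cldn5, Cdh5 and Abcb1a were called higher and none of the 7 lower after injury with vehicle, where 18.4% of all genes were higher and 16.7% lower (13.1% and 18.9% with array medians set to 0). With the 0 h difference taken off, none of these 3 was called (Cldn5 0.32, adjusted p = 0.56, Abcb1a 0.25, adjusted p = 0.71, Cdh5 0.52, adjusted p = 0.19). The value of Cdh5 moved little, from 0.56, and the spread of the 0 h arrays widens the error of all 3. Over 24 and 48 h Cdh5 was higher and Cldn5, Ocln and Mfsd2a were lower, where 25.4% and 22.2% of all genes were. The late minus the early difference was -1.14 ± 0.20 (adjusted p = 3.1e-05) for Cldn5, -0.93 ± 0.22 (adjusted p = 0.0013) for Abcb1a, -0.83 ± 0.16 (adjusted p = 1.4e-04) for Ocln and -0.51 ± 0.17 (adjusted p = 0.019) for Mfsd2a, where 14.8% of all genes were called lower. The first 3 kept sign and call under every alternative run. That of Mfsd2a was lost without S-EtOH 48 h replicate 2 (-0.44, adjusted p = 0.070) or SCI-EtOH 48 h replicate 1 (-0.36, adjusted p = 0.11) and turned after quantile normalization (0.28, adjusted p = 0.35).

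The change from 2, 4 and 6 h to 24 and 48 h within each group shows both sides of these contrasts. In SCI-EtOH rats it was -0.81 ± 0.14 (adjusted p = 9.4e-06) for Cldn5, -0.39 ± 0.11 (adjusted p = 0.0049) for Ocln, -0.43 ± 0.16 (adjusted p = 0.020) for Abcb1a and 0.64 ± 0.11 (adjusted p = 1.0e-05) for Cdh5. In S-EtOH rats the same change, called for none of these 4, was 0.33 ± 0.14 (adjusted p = 0.32) for Cldn5, 0.44 ± 0.11 (adjusted p = 0.053) for Ocln, 0.50 ± 0.16 (adjusted p = 0.14) for Abcb1a and 0.27 ± 0.11 (adjusted p = 0.29) for Cdh5. The signs were opposite in sham and injured rats for the first 3 genes. Mfsd2a was lower late in all 4 groups, by -0.53 ± 0.12 (adjusted p = 0.019) in S-EtOH, -1.004 ± 0.12 (adjusted p = 1.8e-06) in S-MP, -1.04 ± 0.12 (adjusted p = 7.2e-09) in SCI-EtOH and -0.78 ± 0.12 (adjusted p = 2.1e-06) in SCI-MP. In SCI-EtOH 4 of the 7 were called lower and 1 higher with time, where 25.3% and 28.3% of all genes were, and in S-EtOH 1 was lower, where 0.363% were. In S-MP Mfsd2a was lower and Ocln (0.56 ± 0.11) and Cdh5 (0.42 ± 0.11) were higher, where 1.1% and 1.94% were. In SCI-MP Cldn5 (-0.51 ± 0.14), Ocln (-0.32 ± 0.11) and Mfsd2a were lower and Cdh5 (0.83 ± 0.11) and Pdgfrb were higher, where 16% and 28.1% were. After quantile normalization the change in S-EtOH was called for Cldn5 (0.53, adjusted p = 0.018), Ocln (0.67, adjusted p = 6.4e-04), Abcb1a (0.75, adjusted p = 0.0040) and Cdh5 (0.40, adjusted p = 0.0069), and for Tjp1 (0.33, adjusted p = 0.039). All changes called as deposited kept their sign, and those of Cdh5 (0.26, adjusted p = 0.053), Ocln (-0.26, adjusted p = 0.13) and Abcb1a (-0.34, adjusted p = 0.14) in SCI-EtOH and of Ocln in SCI-MP (-0.32, adjusted p = 0.063) were not called.

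**Figure D2:**
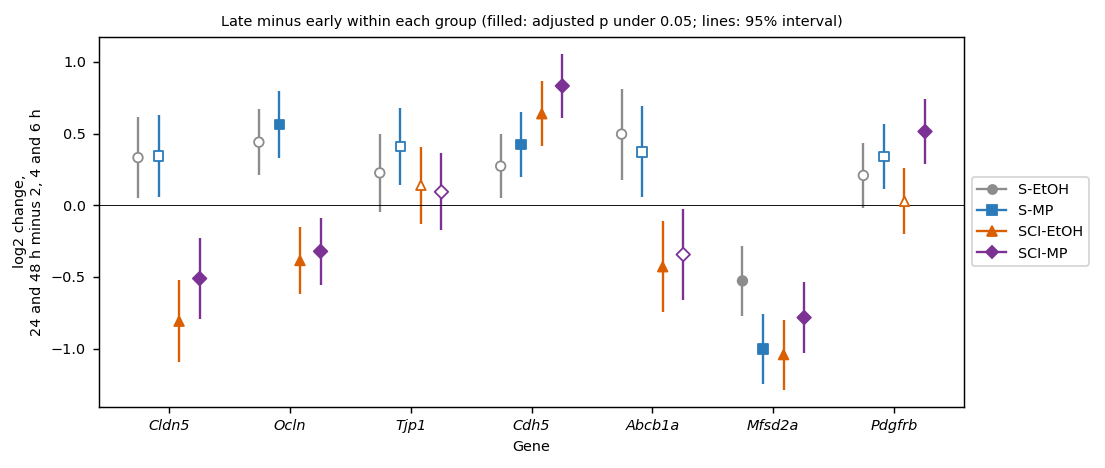
Change in log2 value from 2, 4 and 6 h to 24 and 48 h of each of the 7 genes within each of the 4 groups, with 95% intervals as lines and filled symbols for adjusted p under 0.05. Cldn5 and Ocln lie above 0 in both sham groups and below 0 in both injured groups, and Mfsd2a lies below 0 in all 4.

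With MP, injury against sham gave 2 genes higher and 3 lower over 7 times, where 21.7% of all genes were called higher and 33.3% lower. This comparison shares no array with that in vehicle rats. Cdh5 was at 0.67 ± 0.065 (adjusted p = 5.1e-11) and Abcb1a at 0.26 ± 0.091 (adjusted p = 0.014). Mfsd2a ran from -0.48 over 0.45 to 1.002 in S-MP and from -1.42 over -0.11 to 0.52 in SCI-MP. The S-MP median was above most SCI-MP arrays, and the ranges overlapped. The difference of Mfsd2a was -0.64 ± 0.071 (0.644 times sham, adjusted p = 1.3e-09). Pdgfrb was at -0.19 ± 0.066 (adjusted p = 0.016), which was not called without the 8 h arrays (-0.10, adjusted p = 0.26) or without SCI-MP 48 h replicate 1 (-0.14, adjusted p = 0.055). Cldn5 was at -0.21 ± 0.082 (adjusted p = 0.033), a call lost in 9 of the fits without 1 array, furthest without SCI-MP 48 h replicate 1 (-0.16, adjusted p = 0.095), without the 8 h arrays (-0.07, adjusted p = 0.50) and after quantile normalization (-0.19, adjusted p = 0.080).

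Over 2, 4 and 6 h of the injury with MP, 4 genes were higher and 1 lower, where 8.23% and 28% of all genes were. These were Cdh5 (0.56 ± 0.099), Abcb1a (0.57 ± 0.14), Cldn5 (0.33 ± 0.13), Ocln (0.32 ± 0.10) and, downward, Mfsd2a (-0.77 ± 0.11, adjusted p = 6.8e-07). Without the 6 h arrays Cldn5 (0.29, adjusted p = 0.22) and Ocln (0.36, adjusted p = 0.050) were not called. The call for Cldn5 was also lost in 9 of the fits without 1 array, furthest without SCI-MP 2 h replicate 2 (0.23, adjusted p = 0.19), and that for Ocln without S-MP 4 h replicate 2 (0.25, adjusted p = 0.072) or SCI-MP 4 h replicate 1 (0.25, adjusted p = 0.084). Over 24 and 48 h Cdh5 was higher (0.97 ± 0.12) and Cldn5 (-0.52 ± 0.15), Ocln (-0.57 ± 0.13) and Mfsd2a (-0.55 ± 0.13) were lower, where 18.3% and 22.6% of all genes were, the value of Mfsd2a turning after quantile normalization (0.20, adjusted p = 0.30). The late minus the early difference was -0.89 ± 0.16 (adjusted p = 1.3e-04) for Ocln, -0.85 ± 0.20 (adjusted p = 0.0016) for Cldn5 and -0.72 ± 0.22 (adjusted p = 0.015) for Abcb1a, where 8.87% of all genes were called lower. That of Mfsd2a, 0.22 ± 0.17 (adjusted p = 0.40), was not called.

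In injured rats MP lowered 2 of the 7 genes over 7 times, Cldn5 and Pdgfrb, where 31.7% of all genes were called lower and 10.4% higher. The other 5 genes lay between -0.07 and 0.04, and the median over all genes was -0.06. Cldn5 ran from -0.59 over 0.17 to 1.09 in SCI-EtOH and from -0.91 over -0.15 to 0.50 in SCI-MP. The ranges overlapped and were offset. The difference was -0.36 ± 0.082 (0.78 times vehicle, adjusted p = 7.0e-04), and with the 0 h difference between injured and sham vehicle rats added it was 0.08 (adjusted p = 0.98). SCI-MP had no 0 h arrays, so such a sum cannot show whether the injured groups differed before medication. It also carries the spread of the 0 h arrays, which widens its error. Pdgfrb ran from -0.29 over 0.04 to 0.69 in SCI-EtOH and from -0.59 over -0.26 to 0.85 in SCI-MP. Its highest and its lowest value both came from SCI-MP. The difference was -0.25 ± 0.066 (0.84 times vehicle, adjusted p = 0.0026), and with the same 0 h difference added -0.13, adjusted p = 0.97.

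For Pdgfrb with MP the called phase was the early one. Over 2, 4 and 6 h the difference was -0.44 ± 0.10 (adjusted p = 0.0017), and Pdgfrb was the 1 gene of the 7 called, where 22.9% of all genes were lower. With the 0 h difference added it was not called (-0.32, adjusted p = 0.80). At 6 h SCI-MP read -0.43 and -0.49 and SCI-EtOH 0.05 and -0.08, and at 2 h SCI-MP read -0.29 and 0.02 and SCI-EtOH 0.69 and 0.22. The pairs were apart at both times. At 8 h the difference, not called, was -0.36 ± 0.17 (adjusted p = 0.24). Late, at 24 and 48 h, the difference, not called, was 0.05 ± 0.12 (adjusted p = 0.86). Within SCI-MP rats Pdgfrb rose by 0.51 ± 0.11 (adjusted p = 3.0e-04) from early to late, and within SCI-EtOH rats the change was 0.03 ± 0.11 (adjusted p = 0.85). The difference between these changes was not called at 0.49 ± 0.16 (adjusted p = 0.21).

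At 8 h MP moved 4 of the 7 genes in injured rats, 3 downward, where 4.54% of all genes were lower, and 1 upward, where 2.11% were higher. Cldn5 read -0.22 and 0.66 in SCI-EtOH and -0.90 and -0.91 in SCI-MP, the lowest values of this gene on any array. The SCI-MP pair lay close together and the SCI-EtOH pair far apart. The difference was -1.13 ± 0.22 (adjusted p = 8.6e-04), and without SCI-EtOH 8 h replicate 2 it was -0.69, adjusted p = 0.078. Abcb1a read 0.51 and 0.73 in SCI-EtOH and -0.43 and -0.32 in SCI-MP, pairs that did not overlap. Its difference was -0.997 ± 0.24 (adjusted p = 0.0089), not called without SCI-EtOH 8 h replicate 2 (-0.89, adjusted p = 0.072) or SCI-MP 8 h replicate 1 (-0.94, adjusted p = 0.10). Abcb1b was at -0.29 ± 0.16 (adjusted p = 0.32). Cdh5 was at -0.54 ± 0.17 (adjusted p = 0.050) and Mfsd2a at 0.60 ± 0.19 (adjusted p = 0.044), calls that held in 18 and 52 of 67 alternatives. After quantile normalization and with array weights Cldn5 alone of the 4 was called, Abcb1a being at -0.87, adjusted p = 0.084 with the first, and with the 0 h difference added none was (Cldn5 -0.69, adjusted p = 0.45, Abcb1a -0.68, adjusted p = 0.54). In a limma fit of 8 h alone Cldn5 was not called (adjusted p = 0.055). The methods' plain analysis of variance with Tukey's test called none of the 7 for MP in injured rats at 8 h. No gene of the 7 was called at 12 h, where 7% of all genes were higher and 9.18% lower, or over 24 and 48 h, where 3.27% and 10.6% were, the nearest being Cldn5 at 12 h (-0.61 ± 0.22, adjusted p = 0.051).

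In sham rats 1 of the 7 genes was called higher with MP over 7 times, Mfsd2a, where 5.63% of all genes were called higher and 4.22% lower. It ran from -0.49 over 0.15 to 0.34 in S-EtOH and from -0.48 over 0.45 to 1.002 in S-MP. The S-MP median was above every S-EtOH array, and the lower ends coincided. The difference was 0.33 ± 0.071 (1.25-fold, adjusted p = 0.0024) and kept its call under every alternative run. At 6 h S-MP read 0.88 and 0.79 and S-EtOH 0.25 and 0.21, and over 2, 4 and 6 h the difference was 0.47 ± 0.11 (adjusted p = 0.017), where 0.531% of all genes were higher. That call was lost in 5 of the fits without 1 array, furthest without S-EtOH 6 h replicate 2 (0.46, adjusted p = 0.060), and without the 6 h arrays (0.40, adjusted p = 0.22). Over 24 and 48 h it was -0.01 ± 0.13 (adjusted p = 1.0). Cldn5 (0.23 ± 0.082, adjusted p = 0.064) and Ocln (0.16 ± 0.067, adjusted p = 0.12) were not called over 7 times. The count for MP in sham rats rests on the processing, since 5 of the 7 were called after quantile normalization (Cldn5 at 0.38, Ocln at 0.28, Tjp1 at 0.23, Abcb1a at 0.30 and Mfsd2a) and 4 with array weights (the same without Abcb1a). Quantile normalization also raised the share of all genes called in this comparison, to 16.5% higher and 13.4% lower. At 8 h Ocln read 0.17 and 0.16 in S-MP and -0.40 and -0.71 in S-EtOH, which is 0.72 ± 0.18 (adjusted p = 0.046), where 0.461% of all genes were higher, a call that held in 38 of 66 alternatives.

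Whether MP moved a gene differently in injured and sham rats was tested as the interaction. Over 7 times it was called for Cldn5 (-0.59 ± 0.12, adjusted p = 3.3e-04), Mfsd2a (-0.33 ± 0.10, adjusted p = 0.015) and Pdgfrb (-0.25 ± 0.093, adjusted p = 0.046), all downward, where 20.2% of all genes were. For Cldn5 the parts were -0.36 in injured and 0.23 in sham rats, and the call held under every alternative run. For Mfsd2a they were 0.00 ± 0.071 in injured and 0.33 in sham rats, and without the 6 h arrays the interaction was -0.22, adjusted p = 0.14. That of Pdgfrb held in 25 of 67 alternatives. At 6 h and over 2, 4 and 6 h Mfsd2a alone was called (-0.95 ± 0.26 and -0.65 ± 0.15), where 4.12% and 5.59% of all genes were lower, and without the 6 h arrays the latter was -0.51, adjusted p = 0.20. At 8 h the interaction was called for Cldn5 (-1.76 ± 0.31, adjusted p = 6.6e-04), Abcb1a (-1.39 ± 0.34, adjusted p = 0.015) and Ocln (-0.99 ± 0.25, adjusted p = 0.018), where 3.51% of all genes were lower. The call for Ocln was lost in 4 of the fits without 1 array, furthest without SCI-EtOH 8 h replicate 2 (-0.64, adjusted p = 0.14), and that for Abcb1a in 4, furthest without S-MP 8 h replicate 1 (-1.17, adjusted p = 0.085).

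The study's classes were rebuilt at each time, with a moderated F test in place of the plain analysis of variance of the methods, followed by Tukey's range test. All 3 classes leave out genes that differed between S-MP and S-EtOH. Of the rest, genes that differed from S-EtOH in both SCI-EtOH and SCI-MP, with no difference between these, formed class ICMP, what MP leaves. Genes that differed in SCI-EtOH but not in SCI-MP, with a difference between these, formed class CPMP, what MP moves back, and genes set apart in SCI-MP alone formed class SEMP, side effects. ICMP held Cldn5, Cdh5 and Abcb1a at 4 h, as 9.45% of all genes. It held Cldn5 at 6 h (5.01% of genes), Tjp1 at 8 h (6.08%), Cdh5 and Abcb1a at 12 h (11.6%), Ocln and Cdh5 at 24 h (19%), and Cdh5 and Mfsd2a at 48 h (21.9%). CPMP held Cdh5 and Abcb1a at 8 h, as 5.26% of genes, and none of the 7 at another time. Cldn5 met the other conditions of CPMP at 8 h and was left out because it differed between the sham groups. None of the 7 was in SEMP at any time. The plain analysis of variance left 1 of the 11 ICMP places and neither of the CPMP places.

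The lists of related genes that follow are read against the share of all genes called over 7 times. For injury with vehicle it was 35.1% higher and 27.5% lower. For MP it was 10.4% and 31.7% in injured rats and 5.63% and 4.22% in sham rats. In the same order, the shares after quantile normalization were 32.2% and 26.6%, 8.52% and 19.5%, and 16.5% and 13.4%.

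Among carriers and pumps of the barrier, 14 of 15 listed genes were measured, and 5 were higher, a share like that of all genes, and 1 lower after injury with vehicle. Slc7a5, which carries large neutral amino acids, was at 0.93 ± 0.091 (adjusted p = 7.2e-11) and Slc38a5, which carries glutamine, at 0.49 ± 0.11 (adjusted p = 2.0e-04). Slco1a4, an organic anion carrier, was at -0.44 ± 0.13 (adjusted p = 0.0048) and turned after quantile normalization (0.02, adjusted p = 0.90). Over 2, 4 and 6 h 8 of the 14 were higher and none lower, where 18.4% and 16.7% of all genes were. The median was 0.35 against 0.03 over all genes. With array medians set to 0, 5 were higher, where 13.1% of all genes were. At 24 and 48 h 4 were higher, near the share of all genes (25.4%), and 6 lower, where 22.2% of all genes were. The median was -0.11 against 0.05 over all genes. After quantile normalization it was 0.01, with 3 higher and 6 lower, where 19.3% and 20.6% of all genes were.

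The 6 lower carriers of the late phase were Slco1c1, Slco1a4, Slc22a8, Abcg2, Slc38a5 and Slco2b1, the last named after its value was seen. Slco1c1, which carries thyroxine, was at -2.49 ± 0.23 (adjusted p = 5.2e-11) after 1.01 ± 0.19 (adjusted p = 9.4e-05) over 2, 4 and 6 h. Slco1a4 was at -2.40 ± 0.25 (adjusted p = 6.3e-10), Slc22a8, an organic anion carrier, at -0.87 ± 0.18 (adjusted p = 1.3e-04) and Abcg2, a drug efflux pump, at -0.86 ± 0.19 (adjusted p = 2.0e-04). Slc38a5 was at -0.49 ± 0.20 (adjusted p = 0.043) and Slco2b1 at -0.38 ± 0.097 (adjusted p = 0.0015). Slc7a5 (0.84 ± 0.17) and the glucose carrier Slc2a1 (0.63 ± 0.15), the latter named after its value was seen, were higher. With MP, injury against sham over 24 and 48 h was -2.31 ± 0.23 for Slco1c1 and -1.99 ± 0.25 for Slco1a4.

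**Figure D3:**
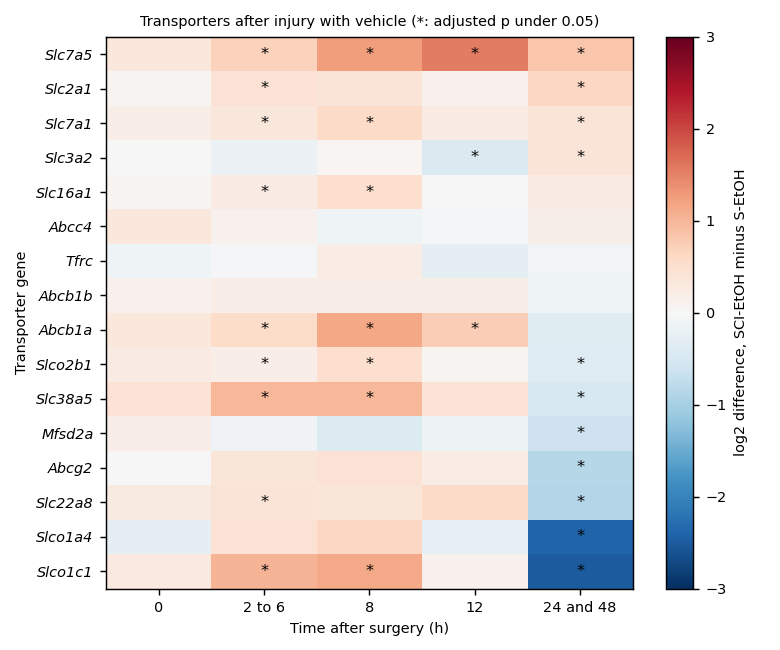
Log2 difference of SCI-EtOH from S-EtOH (colour) for the 14 transporters of the list with Abcb1a and Mfsd2a (rows, ordered by the late value) at 0 h, over 2 to 6 h, at 8 h, at 12 h and over 24 and 48 h (columns), with an asterisk for adjusted p under 0.05. Slco1c1 turns from 1.01 over 2 to 6 h to -2.49 over 24 and 48 h, while Slc7a5 is higher in the late phase, and the late value of Mfsd2a turns after quantile normalization.

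In injured rats 2 of the 14 carriers were higher and 8 lower with MP over 7 times (10.4% and 31.7% of all genes), with Slc38a5 at -0.49 ± 0.11 (adjusted p = 3.8e-04), Slc22a8 at -0.40 ± 0.097 (adjusted p = 0.0012) and Slc7a5 at -0.38 ± 0.091 (adjusted p = 0.0011). The higher call for Abcg2 (0.23, adjusted p = 0.15) and the lower call for Slc2a1 (-0.11, adjusted p = 0.28) were lost after quantile normalization. In sham rats 3 were higher and none lower with MP, Slco1c1 at 0.50 ± 0.12 (adjusted p = 0.0086), Abcg2 at 0.34 ± 0.10 (adjusted p = 0.024) and Tfrc, the transferrin receptor, at 0.25 ± 0.077 (adjusted p = 0.037). After quantile normalization 4 were higher and 2 lower in sham rats, where 16.5% and 13.4% of all genes were. Mfsd2a, at 0.33, was higher beside them.

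Of the other junction genes 10 of 13 were measured, and 7 were higher and 2 lower after injury with vehicle, with a median of 0.30 against 0.04 over all genes. F11r, junctional adhesion molecule A, was at 0.86 ± 0.084 (adjusted p = 8.1e-11), Esam, an endothelial adhesion molecule, at 0.56 ± 0.059 (adjusted p = 3.9e-10) and Ctnnb1, the beta-catenin that binds VE-cadherin, at 0.49 ± 0.054 (adjusted p = 1.4e-09). With MP in injured rats 6 were lower and 2 higher, among them Ctnnb1 (-0.40 ± 0.054), F11r (-0.39 ± 0.084) and Esam (-0.32 ± 0.059), and 5 were lower and none higher after quantile normalization. In sham rats 2 were higher and 2 lower with MP, with Lsr at -0.25 ± 0.059, Esam at -0.19 ± 0.059 and Jam3 at 0.17 ± 0.048.

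Of 20 endothelial identity genes 17 were measured, and 13 were higher and 1 lower after injury with vehicle, with a median of 0.41 against 0.04 over all genes. Podxl, a sialomucin of the vessel lining, was at 1.04 ± 0.11 (adjusted p = 1.2e-09), Sox18, an endothelial transcription factor, at 0.79 ± 0.10 (adjusted p = 4.2e-08) and Nos3, endothelial nitric oxide synthase, at 0.71 ± 0.069 (adjusted p = 6.0e-11). With MP in injured rats 7 were lower and none higher, with Sox18 at -0.66 ± 0.10 (adjusted p = 4.8e-06), Egfl7 at -0.34 ± 0.079 (adjusted p = 8.0e-04) and Robo4 at -0.33 ± 0.070 (adjusted p = 3.3e-04), and 3 were lower after quantile normalization. At 8 h 5 of the 17 were lower with MP, beside Cdh5, where 4.54% of all genes were. Neither Cdh5 (-0.28, adjusted p = 0.42) nor any of the 17 was called after quantile normalization. In sham rats 2 were lower with MP, Mcam (-0.28 ± 0.066) and Nos3 (-0.21 ± 0.069). After quantile normalization 8 were lower and 1 higher there, where 13.4% and 16.5% of all genes were.

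Of 12 genes of vesicle transport and endothelial activation, all measured, 9 were higher and 2 lower after injury with vehicle. Adm, adrenomedullin, was at 1.22 ± 0.12 (adjusted p = 7.8e-11), Esm1, a marker of endothelial tip cells, at 1.20 ± 0.16 (adjusted p = 9.6e-08) and Icam1, to which leukocytes bind, at 0.90 ± 0.082 (adjusted p = 1.5e-11). With MP in injured rats 2 were higher, Adm (0.75 ± 0.12) and Angpt2 (0.35 ± 0.090), the ligand that loosens vessels, and 3 lower, Icam1 (-0.50 ± 0.082) among them. The lower calls for Selp and Apln, named after their values were seen, were lost after quantile normalization (-0.12, adjusted p = 0.19 and -0.07, adjusted p = 0.48). In sham rats Angpt2 was higher (0.38 ± 0.090) and Icam1 (-0.47 ± 0.082) and Sele, E-selectin (-0.17 ± 0.054), were lower with MP. Of 14 Wnt signalling genes, through which nervous tissue induces barrier traits, 11 were measured, and 5 were higher and 2 lower after injury, of which the share higher is near and the share lower below that of all genes. Tspan12, a co-receptor of Norrin, was at -0.50 ± 0.069, Fzd6 at 0.47 ± 0.075 and Lef1 at 0.38 ± 0.074. With MP in injured rats Fzd4 was higher (0.20 ± 0.065) and 3 were lower, among them Tnfrsf19 (-0.30 ± 0.067) and Lrp5 (-0.23 ± 0.045). After quantile normalization the call for Fzd4 was lost (0.14, adjusted p = 0.077). So was the lower call for Axin2 (-0.095, adjusted p = 0.14), named after its value was seen. In sham rats none was called, with Wnt7b at -0.16 ± 0.072 (adjusted p = 0.16).

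Of 17 pericyte and smooth muscle genes 13 were measured, and 7 were higher and 2 lower after injury with vehicle (35.1% and 27.5% of all genes). After quantile normalization 6 were higher and none lower. The lower call for Myh11 was lost, and Rgs5 turned from -0.22 to 0.16 (adjusted p = 0.11). Anpep, a surface peptidase of pericytes, was at 1.03 ± 0.11 (adjusted p = 8.1e-10), Tagln of smooth muscle at 0.65 ± 0.087 (adjusted p = 8.2e-08) and Pdgfb, the endothelial ligand of the receptor that Pdgfrb encodes, at 0.55 ± 0.081 (adjusted p = 4.7e-07). With MP in injured rats 6 were lower and 2 higher, with Pdgfb at -0.47 ± 0.081 (adjusted p = 2.4e-05), Notch3, a receptor of mural cells, at -0.32 ± 0.068 and Anpep at -0.47 ± 0.11, which was not called after quantile normalization (-0.28, adjusted p = 0.058). Ligand and receptor were both lower with MP over 7 times, as 31.7% of all genes were, and a link between them was not tested. In sham rats none was called, with Des at -0.14 ± 0.068 (adjusted p = 0.21). At 24 and 48 h 4 were higher and 4 lower after injury (Rgs5, Vtn, Myh11 and Higd1b are named after their values were seen). These counts stood near the shares of all genes, 25.4% higher and 22.2% lower, so they do not set the list apart. Higher were Anpep (2.32 ± 0.21, adjusted p = 2.4e-11), Tagln (0.90 ± 0.16), Des (0.87 ± 0.13) and Pdgfb (0.58 ± 0.15), and lower were the pericyte marker Rgs5 (-1.75 ± 0.15, adjusted p = 8.9e-12), Vtn (-0.95 ± 0.17), Myh11 of smooth muscle (-0.56 ± 0.11) and Higd1b (-0.19 ± 0.063, not called after quantile normalization), beside Pdgfrb at 0.04 ± 0.12. Of 12 basement membrane genes 6 were measured, with 5 higher and 1 lower after injury and 5 lower with MP in injured rats. Nid2, nidogen-2, was at 1.27 ± 0.078 (adjusted p = 1.2e-15) after injury and at -0.58 ± 0.078 (adjusted p = 4.3e-07) with MP. The laminin chain Lamc1 was at 0.76 ± 0.089 and the collagen chain Col4a1 at 0.64 ± 0.074 after injury, and Lamb2 was at -0.38 ± 0.073 and Agrn at -0.23 ± 0.060 with MP. Lower calls with MP for Col4a1 (-0.08, adjusted p = 0.39) and Lama5 (-0.13, adjusted p = 0.064) were lost after quantile normalization. In sham rats none was called, with Lama5 at -0.14 ± 0.046 (adjusted p = 0.056).

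**Figure D4:**
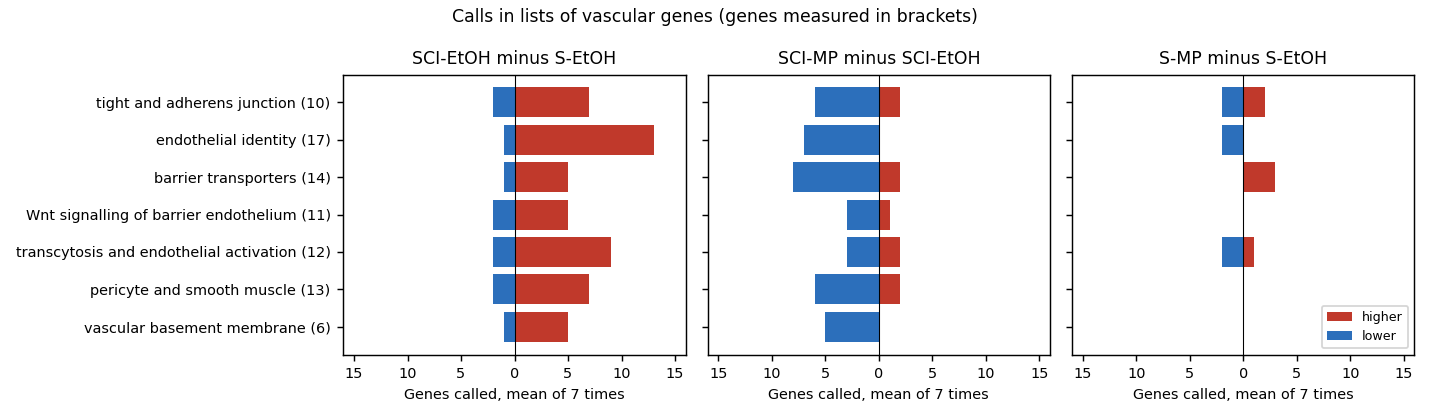
Number of genes called higher and lower over 7 times in 7 lists of vascular genes for SCI-EtOH against S-EtOH, SCI-MP against SCI-EtOH and S-MP against S-EtOH, with adjusted p under 0.05 as the call. In the list of endothelial identity 13 of 17 genes were higher after injury and 7 were lower with MP in injured rats.

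Markers of other cells moved in the same arrays, and their part in the results above was not tested. After injury with vehicle 5 of 5 erythrocyte and platelet genes were higher, with a mean level per array from 0.34 to 1.38 in SCI-EtOH and from -1.06 to -0.09 in S-EtOH, and at 0 h their median difference was 1.35 with none called. Of 11 neutrophil genes 9 and of 8 monocyte and macrophage genes 7 were higher. All 10 neuron and all 7 astrocyte genes were lower, as were 5 of 7 oligodendrocyte genes, with 1 higher, and 3 of 6 skeletal muscle genes. Higher were also 4 of 8 fibroblast and meninges genes, with 1 lower, 3 of 5 Schwann cell genes and 1 of 7 microglia genes. At 8 h, with MP in injured rats, 6 of 11 neutrophil and 3 of 8 monocyte and macrophage genes were lower and 5 of 10 neuron genes higher, where 4.54% of all genes were lower and 2.11% higher, beside the calls for Cldn5, Abcb1a, Cdh5 and Mfsd2a. After quantile normalization 4 neutrophil, no monocyte and macrophage and 3 neuron genes were called. Fkbp5, a target of glucocorticoids, was higher with MP in injured (0.84 ± 0.12) and sham rats (0.62 ± 0.12), with 4 of 5 such genes higher and 1 lower in the former and 2 higher in the latter. Among duplicates, r over genes was lowest in the SCI-EtOH pair of 6 h, at 0.161.

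Over the 30 means of group and time, Cldn5 went with Abcb1a (r = 0.67) and Ocln (r = 0.66), and Abcb1a with Tjp1 (r = 0.54) and Ocln (r = 0.53). Cdh5 and Mfsd2a ran against each other (r = -0.75), and for Cldn5 and Cdh5 r was -0.04. The 30 points share surgery, vehicle and times, so these values are a description. The genes most like each of the 7 over the same 30 means were Akr1c15 for Cldn5 (r = 0.89), Gpr34 for Ocln (0.90), Zfc3h1 for Tjp1 (0.82), S100a6 for Cdh5 (0.96), Adgrf5 for Abcb1a (0.90), Pla2g3 for Mfsd2a (0.92) and Pdgfc for Pdgfrb (0.83). Next came Cyyr1 and Unc13b for Cldn5, Wipi1 and Abcg2 for Ocln, Ctnnd1 and Bbx for Tjp1, Flna and Prrg4 for Cdh5, Slc40a1 and Mfap5 for Abcb1a, Pygm and Nsmf for Mfsd2a, and Ston1 and Igf1r for Pdgfrb, with r from 0.76 to 0.96.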

How the data were processed

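The deposited log2 values were made by the authors from Affymetrix Rat Gene 1.0 ST arrays by robust multi-array average, then normalized for each chip and each gene with GeneSpring GX. Where each probe set's centre came from is not stated there, and no detection call could be used, so signal near background could not be set apart. Of 27342 probe sets, 27338 passed a noise filter built from the methods' description, with a coefficient of variation under 50% between duplicates in at least 16 of the 30 pairs (taken on the linear scale). The authors' exact rule is not clear from that description and may be stricter, and without the filter all 385 values of the members kept their call. A symbol of its own was held by 15097 probe sets, of which 15067 were matched to RefSeq, and 323 held several symbols and were not used. Probe sets of a gene were averaged, which gave 14324 genes.

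A limma fit (limma 3.58.1, R 4.3.3) over 60 arrays with 30 means of group and time left 30 residual degrees of freedom, and contrasts were tested with Benjamini-Hochberg adjustment over all genes. Groups and times came from the labels. Duplicates are called biological in the methods, and the p-values measure the spread between them. No pair of arrays held identical values. The scripts were tested on simulated data.

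The members and lists were chosen with earlier results of these data known. From each of 7 pathway lists, the 3 genes with the largest called difference over 7 times in injury, MP after injury and MP in sham rats were named, or the nearest to a call where none passed, and for likeness the 3 genes of highest r. The 11 marker lists were read as counts. Alternatives were no noise filter, quantile normalization, array medians set to 0, array weights, the replicate number as a block and a fit per time or phase. The methods' plain analysis of variance with Tukey's test was also run (a moderated F test took its place for the classes). The 0 h difference was taken off injury and added to MP in injured rats. The 6 h arrays or single arrays were left out. Leaving out the 8 h arrays and the change within each group were added after seeing the data.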

Additional observations from a re-analysis of the deposited data

Results flagged for a closer look

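A difference between groups under the same contrast was tested for each of the 7 genes, and those called by limma after adjustment over all genes are given here. For Cldn5 the effect of MP in injured minus that in sham rats was -1.764 ± 0.307 (SE) at 8 h and -0.5917 ± 0.116 over 7 times (adjusted p = 6.6e-04 and 3.3e-04). The call at 8 h was lost in a fit of that time alone (adjusted p = 0.068). For Ocln it was -0.9902 ± 0.250 (adjusted p = 0.018) and for Abcb1a -1.388 ± 0.342 (adjusted p = 0.015) at 8 h. That of Ocln was also not called in a fit of that time alone (adjusted p = 0.14) or in 4 fits without 1 array, being -0.64 (adjusted p = 0.14) without SCI-EtOH 8 h replicate 2, and that of Abcb1a was not called in 4 fits without 1 array (adjusted p up to 0.085).

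For Mfsd2a this difference was -0.9467 ± 0.264 at 6 h, -0.6524 ± 0.152 over 2, 4 and 6 h and -0.3261 ± 0.0998 over 7 times (adjusted p = 0.032, 0.010 and 0.015). Without the 6 h arrays the last 2 were -0.51 (adjusted p = 0.20) and -0.22 (adjusted p = 0.14). For Pdgfrb it was -0.2504 ± 0.0934 over 7 times (adjusted p = 0.046).

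The effect of injury changed between 2 to 6 h and 24 to 48 h. In vehicle rats the late minus the early difference was -1.141 for Cldn5, -0.9251 for Abcb1a, -0.8254 for Ocln and -0.5145 for Mfsd2a, the last turning to 0.28 (adjusted p = 0.35) after quantile normalization. In MP rats, which share no array with these, it was -0.8529 for Cldn5, -0.8855 for Ocln and -0.7159 for Abcb1a.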

How the results depend on the processing

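Over 7 times 5 of the 7 genes were called for injury with vehicle, 2 for MP in injured rats, 1 for MP in sham rats, 5 for injury with MP and 3 for the interaction. The late minus early difference was called for 4, 0, 0 and 3 genes, and of 49 pairs of gene and time 15, 5, 1 and 17 were called, in the same order without the interaction. At single times, in that order, 5.25% to 37.4%, 2.07% to 16.2%, 0% to 0.691% and 1.62% to 34.1% of all genes were called. Leaving out 1 array at a time gave 4 to 5, 2 to 2, 1 to 2, 3 to 5 and 2 to 3 genes over 7 times, 3 to 5, 0 to 1, 0 to 0 and 3 to 4 late minus early, 13 to 16, 2 to 7, 0 to 1 and 14 to 18 pairs, and 0 to 0 SEMP, 1 to 3 CPMP and 9 to 12 ICMP places. With the replicate number as a block the counts over 7 times were 5, 2, 1, 5 and 3, and 383 of 385 values kept their call. The deviations of same-numbered arrays of a time had a median r of 0.00417, from -0.574 to 0.431 over 43 pairs. The numbers thus showed no consistent pairing of the rats, and shared handling at single times was not tested.

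Quantile normalization gave 5 genes for MP in sham rats, 5 late minus early with MP, 2 and 7 pairs for MP in injured and sham rats, 1 SEMP and 1 CPMP place. It turned Mfsd2a to 0.1883 at 48 h and 0.1973 over 24 and 48 h for injury with MP, and to 0.0944 over 24 and 48 h and 0.2793 late minus early for injury with vehicle. That method equalises the spread of arrays by construction. With it, 16.5% of all genes were called higher and 13.4% lower for MP in sham rats over 7 times. Array medians of 0 gave 2 and 0 pairs for MP in injured and sham rats, array weights 2 and 6 pairs and 4 genes for MP in sham rats, and a fit per time 2 and 0 pairs. The moderated F test with Tukey's test gave 3 pairs for MP in sham rats, and the plain analysis of variance 1 pair for injury, 0 and 0 for MP in injured and sham rats, 0 CPMP and 1 ICMP places, with fewer degrees of freedom. Taking the 0 h difference off injury gave 1 gene and 6 pairs and turned Cldn5 to -0.05129 and Tjp1 to -0.08145. The spread of the 0 h arrays, which came from other rats, widens the error there too. Adding it to MP in injured rats gave 0 genes and 0 pairs and turned Cldn5 to 0.07966. SCI-MP had no 0 h arrays, so the latter cannot show whether the injured groups differed before medication. Without the 6 h arrays the interaction was called for 1 gene, and without the 8 h arrays, a choice made after seeing the data, injury with MP was called for 3. The other causes were not tested. Classes were not rerun with array weights or the block.

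With 2 rats per group and time, differences at a single time are the least certain, and 0 h was measured in vehicle rats only. Relative values allow no statement on which gene is the more abundant or near background.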
